A study of Mus musculus with 7 samples.

Results

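The clustered protocadherin (Pcdh) genes are arrays of neural cell-surface adhesion genes that lie in tandem on mouse chromosome 18. They were taken by gene symbol: every row named Pcdha, Pcdhac, Pcdhb, Pcdhga, Pcdhgb or Pcdhgc plus a number. This gave 57 of the 36733 rows in the Flag ChIP tables, and the same 57 were among the 22704 rows of the p400 tables. The ChIP-seq data came from E14 mouse embryonic stem cells (ESCs), with 1 sample per condition and 7 samples in all. Tip60-H3F cells carry a histidine and Flag tag on 1 endogenous copy of Tip60, the acetyltransferase subunit of the Tip60-p400 complex, and were profiled with Flag antibody after the control knockdown (GFP KD) or after Hdac6 KD. Hdac6-H3F cells carry the same tag at the end of endogenous Hdac6, a class II histone deacetylase, and were profiled upon GFP KD and Tip60 KD. Wild-type E14 cells without a tag or a named knockdown gave the Flag background. The p400 protein, the ATPase of the complex, was precipitated with an antibody against the endogenous protein in cells without a tag, again after GFP KD or Hdac6 KD. Each knockdown used a lentiviral short hairpin RNA, and cells were taken 72 hr after infection. The Hdac6-H3F sample titled as Tip60 KD carries a genotype label that names Hdac6 KD. It was grouped by its title, and the comparison that uses it holds only if the title is right. No sample has a replicate, so all intervals and tests below cover the counting of reads in single libraries, not the spread between cultures, and they compare libraries rather than conditions. RNA was not analysed here, so neither the knockdowns nor the ESC identity could be checked by expression. Less binding per cell and fewer cells with binding cannot be told apart in these bulk samples.

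The 3 clusters, α, β and γ, are built from similar units in a row. In the α and γ clusters each unit is a variable exon with a promoter of its own, which is spliced to constant exons shared by the whole cluster, and each β gene is a single exon. In neurons a few promoters are used in each cell by chance, which gives the cell a surface identity, while the C-type genes at the ends of the α and γ clusters are expressed more widely. The promoters of most variable exons hold a conserved sequence element bound by CTCF, and cohesin and CTCF loop chosen promoters to distant enhancers. The C-type genes Pcdhac2, Pcdhgc4 and Pcdhgc5, and Pcdhb1, are known to lack that element.

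On the mm9 build all 57 genes lay on the plus strand. The α cluster held 14 genes from Pcdha1 at position 37089939 to Pcdhac2 at 37303623, 213.7 kb apart. The β cluster held 21 genes from Pcdhb1 at 37424652 to Pcdhb21 at 37673306, 248.7 kb apart, and Pcdhb20 is a pseudogene in the GENCODE vM1 annotation. The γ cluster held 22 genes, 12 of type A, 7 of type B and 3 of type C, from Pcdhga1 at 37821599 to Pcdhgc5 at 37979200, 157.6 kb apart. Neighbouring starts were a median of 7440 bp apart in α, 8531 bp in β and 5230 bp in γ. The smallest gap was 3701 bp, so windows of 500 bp on either side of a start never overlapped, whereas profiles that reach 2000 bp overlapped at 2 neighbouring pairs of γ genes.

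The promoters differed in base composition between the arrays. The median GC content from −500 to 500 bp of the transcriptional start site (TSS) was 41.6% in β, 46.4% in the 12 α genes and 47.1% in the 19 γ genes that are not C-type, and 57.4% in the 5 C-type genes, against 53.0% over all rows. Pcdhac2 had the highest GC content at 67.3% and 8.9 CpG per 100 bp, and Pcdhb9 had the fewest CpG at 0.6 per 100 bp. The letters GGCGCT, searched on both strands in the 300 bp before the TSS after the promoters had been looked at, occurred on the sense strand in 19 of 21 β genes, at a median of 64 bp before the TSS. The exceptions in β were Pcdhb1 and Pcdhb13. On the sense strand they also occurred in Pcdhac1 and Pcdhgc3, which gave 21 of the 57 genes (36.8%) against 8.59% of all rows, and on either strand they occurred in 27 of 57 (47.4%) against 15.1%. A match to 6 letters is a description of the window and not a mapped CTCF site. The 57 genes are also close copies of each other. Of the 50-base words in the promoter window a median of 98.2% occurred once in the genome, but in the 12 α genes that are not C-type only a median of 49.6% of the words in the first 500 bp downstream did. Since reads with several matches were placed at 1 of them at random, values of single genes in such stretches may include reads of a copy, whereas all 5 C-type promoters were 100% unique.

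Promoter signal over the 57 genes was at or below the middle of all rows in most samples. Levels are given as RPM, the reads in the 1 kb from −500 to 500 bp scaled to a library of 1000000 reads, so they compare equal lengths. Upon GFP KD the median over the clustered Pcdh genes was 0.516 RPM for Tip60, 0.518 for Hdac6 and 0.711 for p400, which ranked at percentile 43.7, 27.8 and 41.6 of the rows in those samples. In the untagged control the median was 0.518 RPM, at percentile 52.5. The number of clustered Pcdh genes above the median of all rows was 18 of 57 for Tip60, 9 of 57 for Hdac6, 16 of 57 for p400 and 28 of 57 in untagged cells. These medians rest on 11 reads per promoter for Tip60, 6 for Hdac6, 18 for p400 and 12 in the untagged control.

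The arrays were not alike in Hdac6 signal. The β genes had a median of 0.345 RPM for Hdac6 upon GFP KD, the α genes 0.475 and the γ genes 0.777, against 0.863 over all rows. The 5 C-type genes had a median of 1.3 RPM at percentile 72.1, and 4 of the 5 lay above the median of all rows. Hdac6 upon Tip60 KD gave 0.325 RPM in β, 0.325 in α and 0.596 in γ, with 0.867 in the C-type genes. For p400 upon GFP KD the γ genes were the highest array, with 0.929 RPM against 0.632 in each of α and β. In the untagged control the γ genes were also highest, with a median of 0.713 RPM at percentile 78.9, and 8 of the 22 lay above the 90th percentile. For Tip60 upon GFP KD the medians were 0.469 in α, 0.469 in β and 0.586 in γ.

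**Figure D1:**
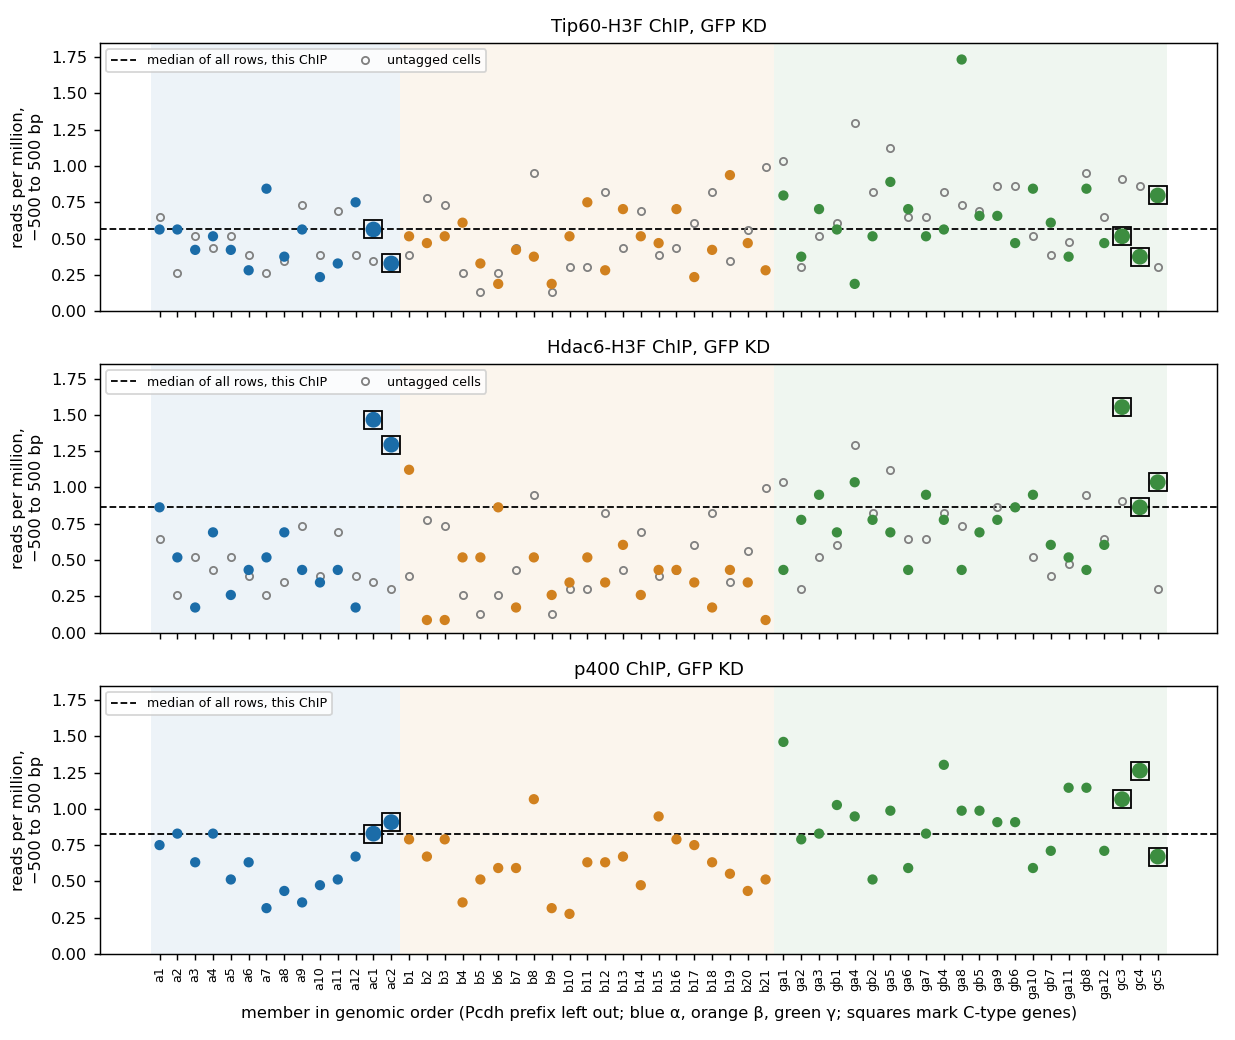
Promoter RPM (−500 to 500 bp, vertical axis) of the 57 genes in genomic order upon GFP KD for Tip60, Hdac6 and p400, with the untagged control as open circles in the Flag panels and the median of all rows as a dashed line; each point is 1 library. For Hdac6 the C-type genes Pcdhac1, Pcdhac2, Pcdhgc3 and Pcdhgc5 lie above the median line while 20 of the 21 β genes lie below it or on it, and for Tip60 the γ gene Pcdhga8 stands alone at 1.73.

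Upon GFP KD the highest Hdac6 signals of the α and γ arrays were those of C-type genes. Pcdhac1 had 1.47 RPM for Hdac6 upon GFP KD and 0.650 upon Tip60 KD, against 0.346 in untagged cells, 0.562 (GFP KD) and 0.574 (Hdac6 KD) for Tip60, and 0.830 and 0.861 for p400. Pcdhac2, the last gene of the α array, had 1.3 and 1.08 for Hdac6, 0.302 in untagged cells, 0.328 and 0.522 for Tip60, and 0.909 and 0.383 for p400. In both genes Hdac6 was the highest of the Flag signals upon GFP KD, and Tip60 lay nearer to the untagged value.

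Pcdhgc3 had 1.55 RPM for Hdac6 upon GFP KD, the highest of all 57 genes, and 0.867 upon Tip60 KD, but its untagged value was also high at 0.907, with 0.516 and 0.939 for Tip60 and 1.07 and 0.797 for p400. Pcdhgc4 had 0.863 and 0.759 for Hdac6, 0.864 in untagged cells, 0.375 and 0.835 for Tip60, and 1.26 and 0.606 for p400. Pcdhgc5, the last γ gene, had 1.04 and 0.975 for Hdac6, 0.302 in untagged cells, 0.797 and 0.992 for Tip60, and 0.672 and 0.606 for p400. Among these 3 genes, Hdac6 upon GFP KD was above the untagged value in Pcdhgc5 (12 against 7 reads) and Pcdhgc3, and equalled it in Pcdhgc4. None of the 3 was called different from untagged cells.

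The first genes of the arrays and the highest genes of each ChIP were spread over the clusters. Pcdha1, the first gene of α, had 0.562 and 0.835 RPM for Tip60 (GFP KD and Hdac6 KD), 0.863 and 1.08 for Hdac6 (GFP KD and Tip60 KD), 0.648 in untagged cells, and 0.751 and 0.478 for p400 (GFP KD and Hdac6 KD). In the same order of samples Pcdhb1, the first and highest β gene for Hdac6, had 0.516 and 0.939, 1.12 and 1.19, 0.389, and 0.790 and 0.510. It is also the β gene with the most GC-rich promoter, at 50.5%, and its Hdac6 signal was above 1 RPM in both samples.

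Pcdhga1, the first γ gene, had 0.797 and 1.04 for Tip60, 0.432 and 0.217 for Hdac6, 1.04 in untagged cells, and 1.46 and 0.701 for p400, the former being the highest p400 value of the 57 genes. Pcdhga8 had 1.73 and 1.10 for Tip60, 0.432 and 1.3 for Hdac6, 0.734 in untagged cells, and 0.988 and 0.701 for p400. Its Tip60 value upon GFP KD, 37 reads, was at percentile 98.8, and it was the only one of the 57 genes above the 90th percentile of that sample.

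Pcdha7, the highest α gene for Tip60, had 0.844 RPM upon GFP KD and 0.104 upon Hdac6 KD, with 0.518 and 0.867 for Hdac6, 0.259 in untagged cells, and 0.316 and 0.414 for p400. Pcdhb19, the highest β gene for Tip60, had 0.937 and 0.574, with 0.432 and 0.108 for Hdac6, 0.346 in untagged cells, and 0.553 and 0.701 for p400. The high Tip60 value of either gene upon GFP KD was not matched in the second Tip60 sample.

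Pcdhb8, the highest β gene for p400, had 1.07 and 0.637 for p400, 0.375 and 0.470 for Tip60, 0.518 and 0.434 for Hdac6, and 0.951 in untagged cells. Pcdhb21, the last β gene, had 0.281 and 0.365 for Tip60, 0.0863 and 0.108 for Hdac6, 0.994 in untagged cells, and 0.514 and 0.606 for p400. Both lay above the 90th percentile in the untagged control while their Flag signal in tagged cells was lower.

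Hdac6 signal followed the GC content of the promoter among these genes. Over the 57 genes Spearman's rho between GC content and Hdac6 signal upon GFP KD was 0.67, and it was 0.75 over all rows. It was 0.51 for Hdac6 upon Tip60 KD and 0.54 for p400 upon GFP KD, but 0.19 for Tip60 and 0.14 in the untagged control. The points share a library, a chromosome and much of their sequence, so these values are descriptions. Set against rows of like GC content, the clustered Pcdh genes were near the middle for Hdac6 upon GFP KD: of the 29 genes with 45 to 50% GC, 14 lay above the median of the 6400 rows in that range, and of the 16 genes with 40 to 45% GC, 9 did. Upon Tip60 KD 10 of the 29 and 2 of the 16 lay above it. Genes equal to the median are not counted as above it. In the range of 40 to 45% Pcdhb3, Pcdhb4, Pcdhb8, Pcdhb14 and Pcdhb16 lay on that median, with 4 reads (0.434 RPM) each. Signal of p400 was above the median of rows of like GC content in 23 of the 29 genes and 14 of the 16 upon GFP KD. Upon Hdac6 KD this held for 17 and 12. In the other ranges p400 upon GFP KD was above it in 3 of 5 genes (below 40%), 1 of 4 (50 to 55%), 1 of 2 (55 to 60%) and 0 of 1 (60 to 70%). Untagged signal was also above it in 19 of the 29 and 9 of the 16. No background sample for the p400 antibody was used, so these counts do not show p400 above background. The order of the genes repeated best for Hdac6, with rho 0.60 between its 2 samples over the 57 genes (0.79 over all rows), followed by p400 with 0.53. For the 2 Tip60 samples rho was 0.12 (0.48 over all rows), and between Tip60 upon GFP KD and the untagged control it was 0.033.

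**Figure D2:**
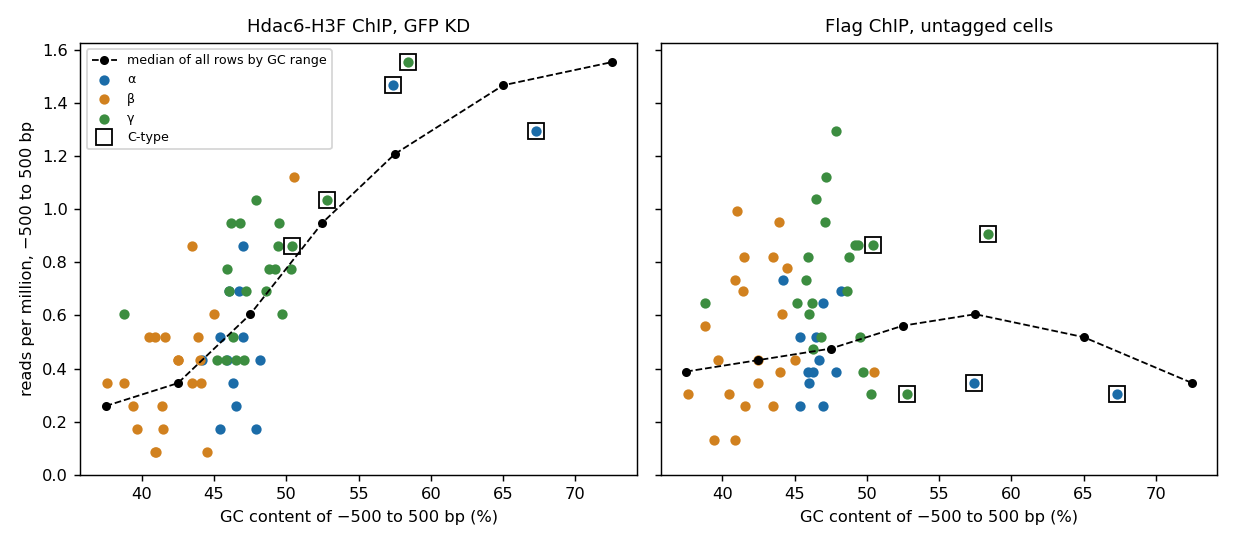
Promoter RPM (−500 to 500 bp) against GC content of the same window for the 57 genes in the Hdac6 ChIP upon GFP KD and in the untagged control; squares mark C-type genes, and the dashed line joins the medians of all rows in ranges of GC content. For Hdac6 the genes climb with the line from β on the left to C-type on the right (rho 0.67), whereas in untagged cells they do not (rho 0.14).

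The comparison with untagged cells asked where tagged protein gave more Flag signal than the antibody alone. The untagged cells had no named knockdown, so the tag and the hairpin infection cannot be told apart in it. The whole Hdac6 library had fewer reads than the untagged one, 11586223 against 23146800, and each of its reads covered 148.4 bp in the files against 298.8 bp, which was allowed for in the counts. For Tip60 upon GFP KD 0 of the 57 promoters were called higher by the exact binomial test on reads (adjusted p below 0.05 by Benjamini-Hochberg over all rows), where 1.34% of all rows were, and 4 had an unadjusted p below 0.05 in that direction, where 9.05% of rows did. Pcdhga4 was called lower, with 4 reads (0.187 RPM) for Tip60 against 30 reads (1.3) in untagged cells, a ratio of 0.145 (95% interval 0.0370 to 0.410, adjusted exact p = 0.00339), where 0.117% of rows were called lower. The call was lost within 250 bp of the TSS (adjusted exact p = 0.104) and from −100 to 300 bp (adjusted exact p = 0.466). Summed over the 57 promoters, Tip60 RPM were 0.933 times the untagged value (95% counting interval 0.839 to 1.04), against 1.17 over all rows. Tip60 signal above the Flag background was therefore not detectable over these promoters at this depth.

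For Hdac6 upon GFP KD, 2 promoters were called higher than in untagged cells, where 22.3% of all rows were, and both are C-type genes of the α array. Pcdhac1 had 17 against 8 reads, a ratio of 4.25 (1.74 to 11.4, adjusted exact p = 0.00472), and Pcdhac2 had 15 against 7 reads, a ratio of 4.28 (1.64 to 12.4, adjusted exact p = 0.00831). With both libraries scaled to equal totals these calls were lost, with adjusted exact p = 0.0726 and 0.110, and also in the window from −100 to 300 bp, with adjusted exact p = 0.239 and 0.307. Pcdhgc5 had 12 against 7 reads and Pcdhb1 13 against 9, with adjusted exact p = 0.0519 and 0.0767. The β genes Pcdhb2, Pcdhb3 and Pcdhb21 were called lower, where 0.378% of rows were, each with 1 Hdac6 read against 18, 17 and 23 untagged reads; the ratio of Pcdhb21 was 0.0869 (0.00211 to 0.535, adjusted exact p = 0.0122). These 3 calls were lost in windows of 250 bp on either side.

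Summed over the 57 genes, Hdac6 RPM were 1.02 times the untagged value (0.898 to 1.15), against 1.84 over all rows. Its direction depended on the processing, with 0.738 (0.652 to 0.835) under equal totals and 1.33 (1.10 to 1.59) from −100 to 300 bp, against 1.33 and 2.14 over all rows. With the normalizing reads and the window used throughout, the ratio was 2.28 (1.61 to 3.25) in the 5 C-type genes, 1.33 (1.02 to 1.74) in α, 1.05 (0.878 to 1.25) in γ and 0.786 (0.616 to 0.997) in β. Leaving out any 1 C-type gene kept their ratio between 2.00 and 2.88. Without the 2 C-type genes the α ratio was 0.991 (0.723 to 1.35), and the γ ratio was 0.959 (0.786 to 1.17) without its 3. The C-type genes also had a higher GC content than the others, and the part of GC content in this difference was not tested.

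The largest mean Hdac6 signal over these genes lay not at the promoter but in the stretch behind it. Over all rows Hdac6 signal upon GFP KD was highest at 100 bp downstream of the TSS, with 1.14 RPM per kb. Over the clustered Pcdh genes the highest position was at 1900 bp, with 1.61 RPM per kb. The highest position was at 1780 bp in α, 1940 bp in β and 1900 bp in γ, near the end of the measured stretch, so the true maximum may lie beyond it.

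**Figure D3:**
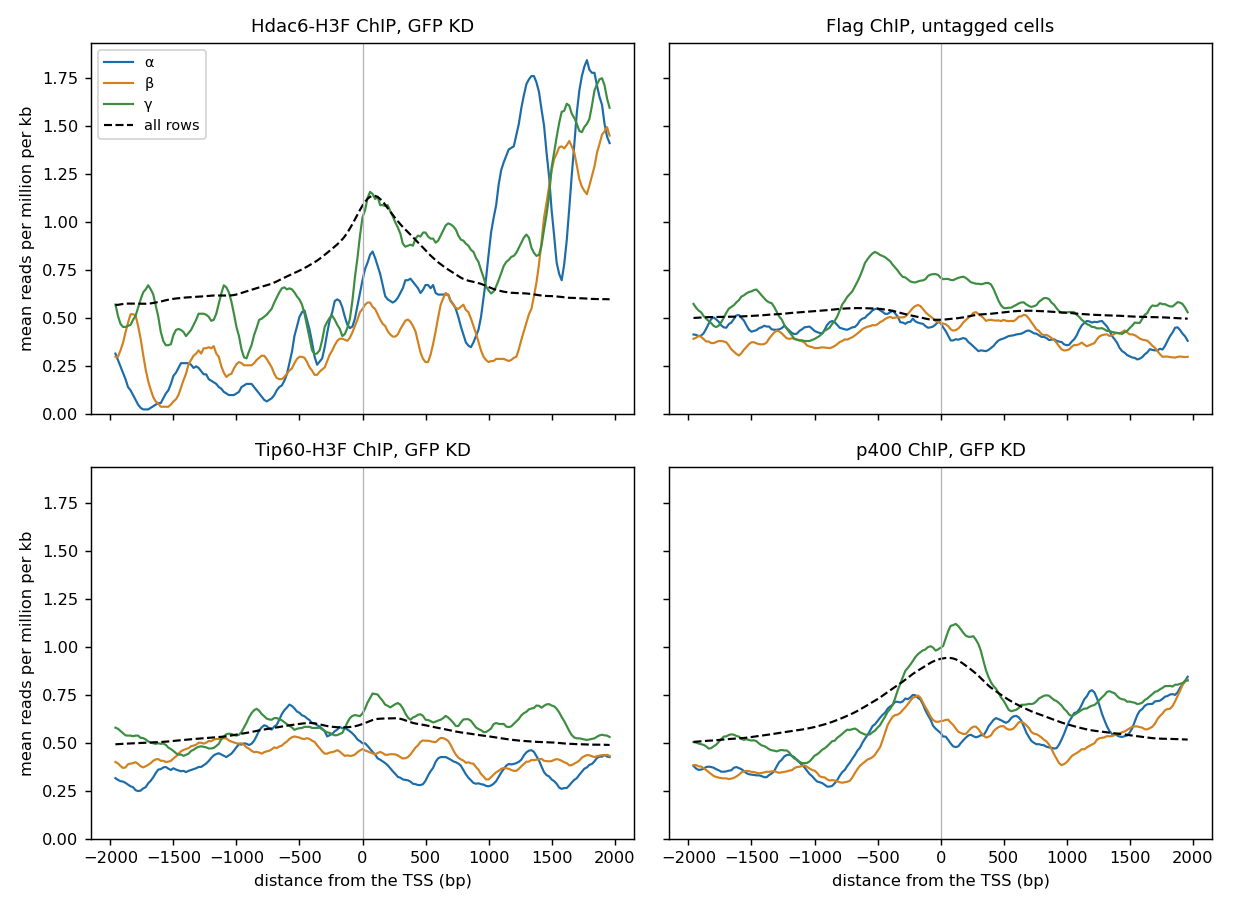
Mean RPM per kb by distance from the TSS (bp, smoothed over 100 bp) for the α, β and γ genes and for all rows (dashed), in the Hdac6, untagged, Tip60 and p400 samples named above the panels. In the Hdac6 panel all 3 arrays climb past 1000 bp, to 1.84 in α and 1.75 in γ, while the line of all rows falls away from its maximum of 1.14 next to the TSS; the untagged and Tip60 panels show no such climb, and p400 shows a smaller one.

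The stretch from 500 to 2000 bp downstream was then measured in every gene and set against the stretch from 2000 to 500 bp upstream, a choice made after the profiles were seen. For Hdac6 upon GFP KD the mean over the 57 genes was 1.5 RPM downstream against 0.507 upstream, 2.96 times as much, and 53 of the 57 genes were higher downstream. In the second Hdac6 sample, upon Tip60 KD, it was 1.39 against 0.449 (3.09 times), with 54 genes higher downstream. For p400 the ratio was 1.56 upon GFP KD (0.978 against 0.629) and 1.60 upon Hdac6 KD (0.991 against 0.619), with 53 of 57 genes higher in each. The ratio was 0.975 and 0.806 in the GFP KD and Hdac6 KD samples of Tip60, and 0.942 in the untagged control. Over all rows the same ratio lay between 0.968 and 1.06 in the 7 samples. For Hdac6, 18123 of the 36733 rows were higher downstream upon GFP KD and 17965 upon Tip60 KD. For p400, 11353 of the 22704 rows were higher downstream upon GFP KD and 11959 upon Hdac6 KD.

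The step was steepest in the α array. There Hdac6 upon GFP KD had 1.71 RPM downstream against 0.253 upstream, 6.76 times as much, in 14 of 14 genes, and upon Tip60 KD 1.62 against 0.310. The ratio upon GFP KD was 3.05 in β (19 of 21 genes) and 2.14 in γ (20 of 22). Pcdha2 had the highest downstream Hdac6 value of the 57 genes, 2.59 RPM or 30 reads, against 0.0863 upstream, and ranked at percentile 98.1. The lowest was Pcdhb5 with 0.259 downstream and 0.345 upstream.

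**Figure D4:**
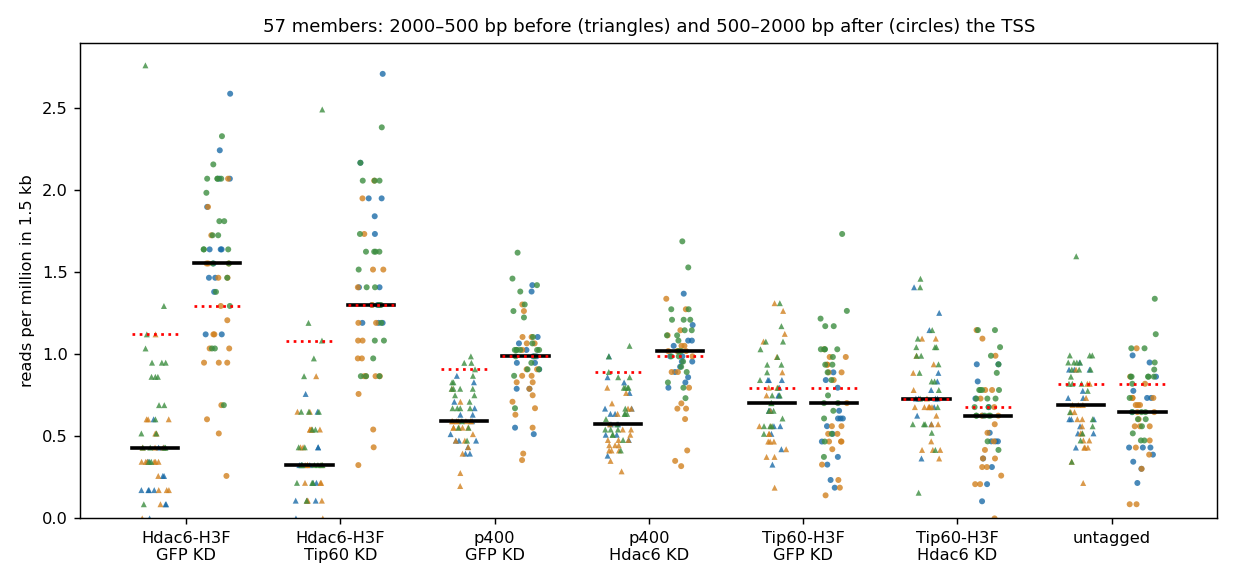
RPM in 1.5 kb from 2000 to 500 bp before the TSS (triangles) and from 500 to 2000 bp after it (circles) for the 57 genes in all 7 samples (α blue, β orange, γ green); black bars are medians of these genes and red dotted lines medians of other rows whose downstream GC content lies in the same range. In both Hdac6 samples and both p400 samples the genes lie lower before the TSS than after it, with means of 0.507 and 1.5 for Hdac6 upon GFP KD, while in untagged cells the means are 0.709 and 0.668.

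This stretch is coding sequence in most of the genes: in 38 of the 57 it lay wholly in an annotated coding exon, and in 17 the annotation used here has no exon there. Its median GC content was 51.6% against 45.9% over all rows, and it was lower before the TSS, with a median of 38.0% from 2000 to 1500 bp upstream against 59.4% from 1500 to 2000 bp downstream. Other rows in the same range of downstream GC content, 10999 in number, had downstream over upstream ratios of 1.13 for Hdac6 and 1.05 for p400 upon GFP KD. Other rows with that GC content whose stretch was wholly exonic, 271 in number, had 1.23 and 1.09. Both sets were matched on downstream GC content only. In the larger set 6331 of the 10999 rows were higher downstream for Hdac6 upon GFP KD. For p400 upon GFP KD 3766 of its 6833 rows were. Upon GFP KD mean upstream Hdac6 signal was 1.18 RPM in the 10999 rows against 0.507 in the clustered Pcdh genes, and downstream 1.33 against 1.5. The part of upstream GC content in the ratios was not tested. A median of 85.3% of the 50-base words in the stretch occurred once in the genome, and for all 5 C-type genes 100% did. Upon GFP KD the C-type genes had 1.67 RPM for Hdac6 downstream against 1.05 upstream.

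Against untagged cells the downstream stretch gave more Hdac6 signal in 56 of 57 genes upon GFP KD, where 56.6% of all rows had more. In other rows of like GC content 8974 of 10999 had more, and 224 of the 271 that were also wholly exonic. By the exact binomial test 22 of the 57 genes (38.6%) were called higher, where 7.66% of all rows were. Among the other rows of like GC content 10.8% were called, and 15.5% of those that were also wholly exonic. The calls fell on 9 of 14 α genes, 4 of 21 β genes and 9 of 22 γ genes, the last made up of 6 of 7 type B genes, 2 of 3 type C genes and 1 of 12 type A genes. No gene was called lower, where 0.836% of rows were. The summed ratio was 2.25 (95% counting interval 2.05 to 2.47), with 2.90 in α, 2.03 in β and 2.11 in γ, against 1.27 over all rows and 1.58 in other rows of like GC content. Pcdha5 had the highest ratio of those called, with 19 reads for Hdac6 against 5 in untagged cells (7.59, 2.74 to 26, adjusted exact p = 0.000498), followed by Pcdha12 with 24 against 10 (4.8, 2.21 to 11.2, adjusted exact p = 0.000832). When each gene was divided by the Hdac6 to untagged ratio of windows of matching GC content 1500 to 2000 bp away from the starts of all rows, the summed ratio was 1.41 (1.29 to 1.55) against 1.01 over all rows, and 0 single genes were then called, with 3 called under equal totals. For Tip60 upon GFP KD 0 genes were called in the stretch, where 0.144% of rows were called higher and 0.0653% lower, and the ratio was 1.07 (0.975 to 1.18). An unadjusted p was below 0.05 for more Tip60 in 5 genes and for less in 1, where 4.81% and 4.18% of rows had one.

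The knockdown comparisons asked whether binding of one factor at these promoters depended on the other. Since neither Flag signal stood above the untagged value over the 57 promoters together, the Tip60 and Hdac6 ratios below compare signal at or near background for most genes and bear little on dependence. For Tip60, 0 of the 57 promoters were called upon Hdac6 KD in either direction, where 0.422% of all rows were called lower and 0.0517% higher, and 1 had an unadjusted p below 0.05 for a higher and 3 for a lower value, where 3.09% and 9.92% of rows did. The largest decrease was that of Pcdha7, from 18 to 2 reads (ratio 0.124, 0.0139 to 0.517, adjusted exact p = 0.0678), and the largest increase that of Pcdhb17, from 5 to 21 reads (ratio 4.68, 1.72 to 15.9, adjusted exact p = 0.0702). Neither passed the test. Summed over the 57 genes Tip60 RPM upon Hdac6 KD were 1.03 times the GFP KD value (0.925 to 1.16), against 0.848 over all rows. With the GC correction the ratio was 1.13 (1.01 to 1.26), against 1.01 over all rows. With equal totals it was 1.14 (1.02 to 1.28), against 0.939 over all rows. With the normalizing reads used throughout, the ratio by array was 0.982 in α, 1.17 in β and 0.963 in γ. It was 1.5 (1.04 to 2.16) in the C-type genes, of which 5 of 5 were higher. The C-type ratio stayed between 1.37 and 1.63 without any 1 of them.

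For Hdac6, 0 of the 57 promoters were called upon Tip60 KD, where 0.00272% of all rows were called higher and 0.0% lower, and 1 promoter had an unadjusted p below 0.05 for a higher value, where 2.17% of rows did. This was Pcdhga8, with 12 reads upon Tip60 KD against 5 (ratio 3.01, 0.988 to 10.9, adjusted exact p = 1). The summed ratio over the 57 genes was 0.826 (0.703 to 0.970), against 1.02 over all rows, and 37 genes were lower, where 46.6% of rows were. Its interval covered 1 within 250 bp (0.827, 0.664 to 1.03) and from −100 to 300 bp (0.831, 0.662 to 1.04). With at least 10 reads per row it also covered 1 (0.872, 0.724 to 1.05). In the C-type genes the ratio was 0.698 (0.462 to 1.04), with 5 of 5 lower. The libraries held 9226751 and 11586223 reads. At this depth 3 genes, Pcdha10, Pcdhb9 and Pcdhb10, had 0 reads upon Tip60 KD, a count that allows up to 3 reads or 0.325 RPM.

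For p400, Pcdhga1 fell upon Hdac6 KD, the only one of the 57 genes called, where 13.1% of all rows fell and 0.3% rose. It had 22 reads (0.701 RPM) against 37 (1.46), a ratio of 0.480 (0.270 to 0.835, adjusted exact p = 0.0452). The call was lost under each of the other windows, scalings and corrections tried except those that only drop rows, with adjusted exact p between 0.0630 and 0.314. Unadjusted p was below 0.05 for a lower value in 7 genes (26.0% of all rows), among them Pcdhgb4 with 19 against 33 reads (adjusted exact p = 0.0533) and the C-type gene Pcdhgc4 with 19 against 32 (adjusted exact p = 0.0679). Summed over the 57 genes p400 was 0.761 times the GFP KD value (0.698 to 0.830), against 0.688 over all rows. In RPM 43 genes were lower, where 73.3% of rows were. With the GC correction the summed ratio was 0.764, against 0.771 over all rows, so the gap to all rows was not kept. With equal totals it was 0.921, against 0.832 over all rows. With the normalizing reads used throughout, the ratio was 0.711 (0.626 to 0.808) in γ with 20 of 22 lower. It was 0.781 (0.644 to 0.947) in α and 0.826 (0.708 to 0.965) in β. Past a 1.5-fold change 18 genes were lower and 0 higher, where 41.6% and 7.35% of all rows were. In the stretch from 500 to 2000 bp the p400 ratio was 1.01 (0.944 to 1.09), against 0.908 over all rows and 0.978 in other rows of like GC content. There 0 genes were called, where 0.696% of rows were called lower and 0.0573% higher, and 1 gene, Pcdhga5, had an unadjusted p below 0.05 for a higher value, where 3.05% of rows did. In the same stretch the Tip60 ratio upon Hdac6 KD was 0.882 (0.797 to 0.976), against 0.864 in other rows of like GC content, and with the GC correction it turned to 1.02 (0.920 to 1.13). For Tip60 0 genes were called there, where 0.457% of rows were called lower and 0.215% higher, and 2 were higher and 6 lower at an unadjusted p below 0.05, where 4.03% and 8.57% of rows were. For Hdac6 upon Tip60 KD 0 genes were called (ratio 0.922, 0.837 to 1.02), where 0.00272% of rows were called in each direction, and 1 was lower at an unadjusted p below 0.05, where 1.63% of rows were.

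**Figure D5:**
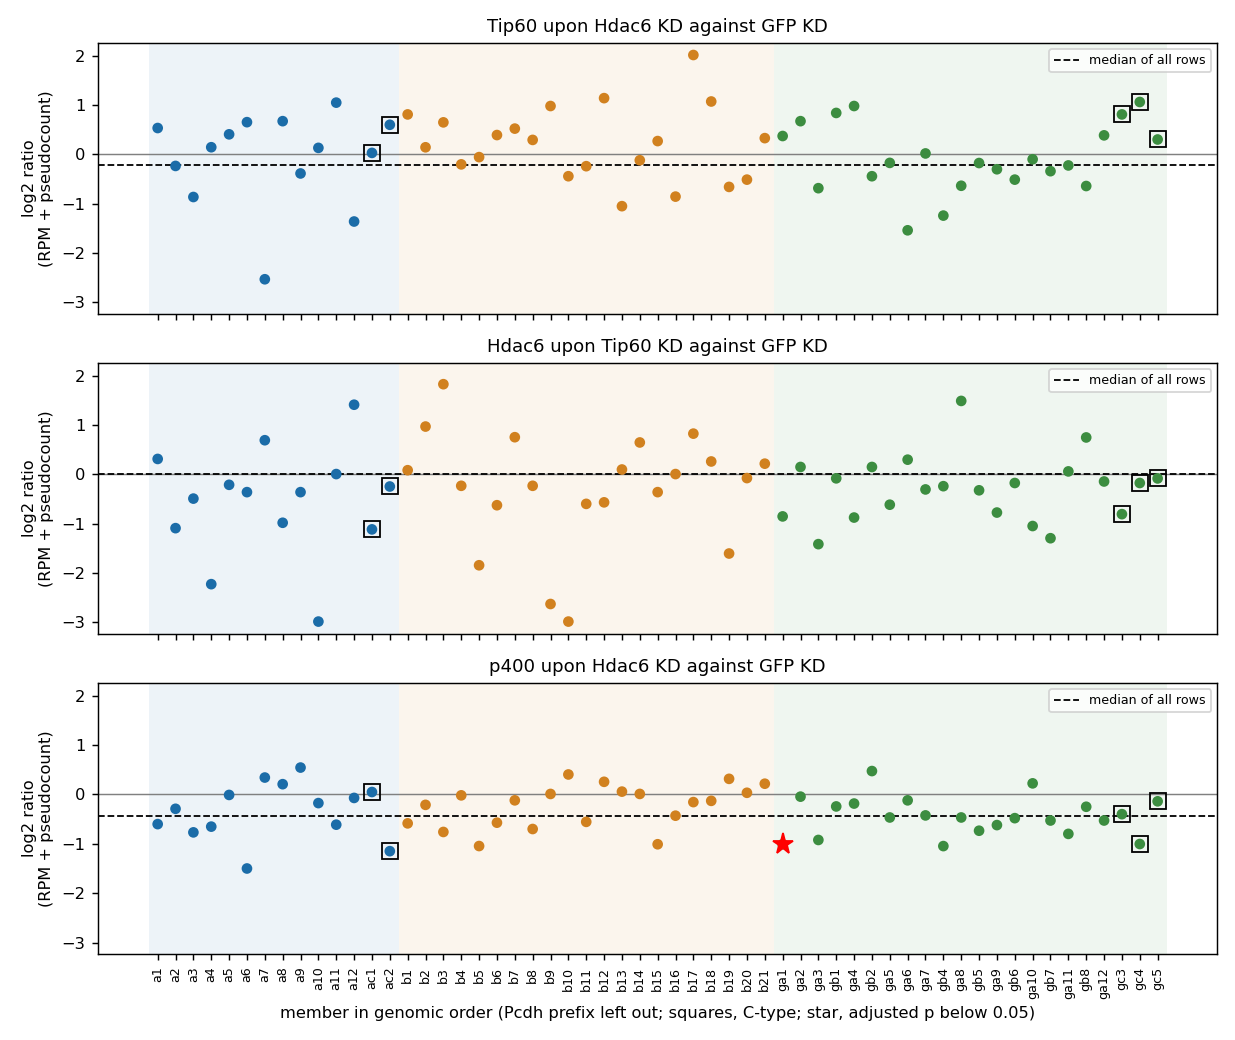
Log2 ratio of promoter RPM (with a pseudocount of 0.05) upon knockdown against GFP KD for the 57 genes in genomic order, for Tip60, Hdac6 and p400, with the median of all rows dashed; squares mark C-type genes and the star the 1 called gene. The 5 C-type genes lie above 0 for Tip60 and below 0 for Hdac6, and for p400 43 of the 57 genes lie below 0 with Pcdhga1 as the star.

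The genes around the arrays gave a local comparison. Of 18 genes near the clusters fixed as a list 15 were found, in 18 rows. Their median Hdac6 signal upon GFP KD was 1.51 RPM at percentile 81.4. In 6 rows it was called higher than in untagged cells, where 22.3% of all rows were. The summed ratio was 1.97 (1.68 to 2.32), against 1.84 over all rows. Some of the 18 rows have overlapping windows, namely rows of Arap3, Ndufa2 with Ik, Hars with Hars2, and Hdac3 with Rell2. The counts and summed ratios of this list therefore repeat some reads. Hdac3, a class I histone deacetylase encoded past the γ array, had 27 Hdac6 reads against 18 in untagged cells (ratio 3.0, adjusted exact p = 0.00397). Upon Hdac6 KD the list's Tip60 ratio was 0.578 (0.479 to 0.696), against 0.848 over all rows. This ratio includes overlapping rows of Arap3, which had 16, 14 and 14 reads upon GFP KD and 3 in each upon Hdac6 KD. Zmat2, a zinc finger gene before the α array, fell from 29 to 3 reads (ratio 0.115, adjusted exact p = 0.00950). It was the only row of the list called for Tip60, where 0.422% of all rows were called lower. The list's p400 ratio was 0.638 (0.564 to 0.723), against 0.688 over all rows, with 2 rows called lower, where 13.1% of all rows were. These were Ndufa2, a subunit of respiratory complex I, and Diap1, a formin past the γ array, which fell from 38 to 22 reads (ratio 0.467, adjusted exact p = 0.0353). Slc25a2, a mitochondrial ornithine transporter, and Taf7, a TFIID subunit, lie between the β and γ arrays and had no row of their name. The rows 16 and 39 bp from their annotated starts had 0.691 and 1.38 RPM for Hdac6 upon GFP KD, against 0.605 and 0.907 in untagged cells. For Tip60 these rows had 0.562 and 0.703 upon GFP KD and 0.157 and 0.679 upon Hdac6 KD.

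Protocadherin genes outside the arrays were measured in the same way. Of 11 genes on the list 10 were found, in 13 rows, with a median Hdac6 signal of 0.863 RPM. The summed ratio to untagged cells was 2.02 (1.54 to 2.64), against 1.84 over all rows. In 2 rows, 1 each of Pcdh9 and Pcdh11x, Hdac6 was called higher, where 22.3% of all rows were. The list's p400 ratio upon Hdac6 KD was 0.680 (0.550 to 0.840), against 0.688 over all rows. Pcdh7 fell from 23 to 9 reads (adjusted exact p = 0.0240), the 1 row called lower, where 13.1% of all rows were. Of 16 genes for CTCF, cohesin and silencing factors known to act at the clusters 14 were found, in 26 rows. Their Hdac6 ratio to untagged cells was 2.51 (2.16 to 2.92), with 14 rows called higher, where 22.3% of all rows were. The first of 2 rows of Ctcf had 19 Hdac6 reads against 9 in untagged cells (adjusted exact p = 0.00267), whereas the second had 5 against 26. Smchd1, a chromatin protein that silences the arrays, had 26 against 7 (adjusted exact p = 1.2e-05). Upon Hdac6 KD the p400 ratio of the 26 rows was 0.559 (0.491 to 0.636), against 0.688 over all rows. For p400 7 of the 26 rows were called lower, where 13.1% of all rows were. Among them were the first row of Ctcf, from 32 to 16 reads (adjusted exact p = 0.0305), and Smchd1, from 32 to 12 (adjusted exact p = 0.00495). In the second row of Ctcf p400 went from 13 to 20 reads. For Tip60 0 of the 26 rows were called upon Hdac6 KD, where 0.422% of all rows were called lower and 0.0517% higher. At an unadjusted p below 0.05, 2 were higher and 4 lower, where 3.09% and 9.92% of all rows were. The 2 higher were rows of Setdb1 with the same reads in each, 3 upon GFP KD and 11 upon Hdac6 KD. Rows with starts less than 1 kb apart share reads, among them rows of Setdb1, Dnmt3a, Ehmt2, Wiz, Dnmt1 and, in the list before, Pcdh9. The counts and summed ratios of these lists therefore repeat some reads.

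Marker genes were read as promoters only. The 6 ESC marker genes, in 8 rows, had a median Hdac6 signal of 1.47 RPM upon GFP KD, with 2 rows called higher than in untagged cells, where 22.3% of all rows were. Upon Hdac6 KD the p400 ratio of the 8 rows was 0.596 (0.478 to 0.741), against 0.688 over all rows. In RPM 8 of the 8 rows were lower, where 73.3% of all rows were, and 2 were called lower, where 13.1% were. Pou5f1 went from 35 to 17 reads and Sox2 from 32 to 17, whereas Nanog went from 28 to 27 (1.11 to 0.86 RPM). Of the 4 fibroblast marker genes 3 had a row, with a median Hdac6 signal of 0.949 RPM and 1 row called higher. For Tip60 1 row (Col1a1) was called lower than in untagged cells, where 0.117% of all rows were.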

How the data were processed

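ChIP-seq of 7 samples was used, 1 per condition, so no spread between cultures could be measured. The authors collapsed reads by sequence, mapped them to mm9 with Bowtie allowing up to 1 mismatch, kept 1 random alignment of reads with several, extended reads, removed simple repeats, and deposited normalized signal (coverage per read total) every 20 bp from −2000 to 2000 bp of each TSS. Base calls were made with CASAVA 1.8.2 per the submitters' processing notes. All values were whole multiples of 1 read's share (tolerance 0.01 of a step), which gave 9226751 to 31375556 normalizing reads per sample. Reads spanned 148.4 to 148.6 bp in the Hdac6 files and 298.8 to 299.0 bp in the other files.

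Reads in a window were recovered as summed signal over step, times 20 bp over the span, rounded, and expressed as RPM, scaled to 1000000 reads. An exact two-sided binomial test given the normalizing reads was run on every row (36733, or 22704 for p400) with Benjamini-Hochberg adjustment, called at an adjusted p below 0.05. No filter on low values was used, so all 57 genes were tested in each of 5 comparisons. Fold counts used a pseudocount of 0.05 RPM and 1.5-fold. Intervals are 95% and cover counting error only. Multiply mapped and overlapping fragments are not independent, so they are too narrow. In the lists, rows whose starts lie less than 1 kb apart also share reads. GC content, annotation and 50-base words came from the mm9 genome and GENCODE vM1.

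The genes and the lists (neighbours of the clusters, unclustered protocadherins, CTCF, cohesin and silencing factors, ESC and fibroblast markers) were chosen with earlier results of these data known. Named genes are the C-type genes, the first and last of each array, the highest of each array for Tip60, Hdac6 and p400 upon GFP KD, and those called in a knockdown comparison. Pcdhga4, Pcdhb2, Pcdhb3, Pcdha2, Pcdha5, Pcdha12, Pcdhb5, Pcdhb17, Pcdhgb4, Pcdhga5 and others outside this rule, and the genes named from the lists except Hdac3, Zmat2, Diap1, Slc25a2 and Taf7, were named after their values were seen. Alternatives were other windows, scalings, filters, thresholds and a GC correction. The test was tested on simulated data. Python 3.11.15, numpy 2.4.6, scipy 1.17.1, pandas 2.3.3, numba 0.67.0 and matplotlib 3.10.9 were used. Sequences of the clusters and RNA were not analysed here beyond the counts given.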

Additional observations from a re-analysis of the deposited data

Results flagged for a closer look

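Upon Hdac6 KD the summed promoter ratios of Tip60 and p400, members of the same complex, lay on different sides of 1 over the clustered Pcdh genes. The Tip60 ratio to GFP KD was 1.03 (0.925 to 1.16) and the p400 ratio 0.761, so the former was 1.36 times the latter. Over all rows the Tip60 ratio, 0.848, was also above the p400 ratio, 0.688. A gap in this direction is therefore not particular to the clustered Pcdh genes. In β the quotient was 1.42 (1.17 over 0.826), and in the 5 C-type genes it was 2.19 (1.5 over 0.686). Tip60 signal at these promoters was not above the Flag background (0.933 times the untagged value), so a Tip60 ratio near 1 does not show that Tip60 binding was kept. Each protein has 1 library per condition, and the difference between them was not tested.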

How the results depend on the processing

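Of the counts of called promoters and summed ratios in the 5 promoter comparisons, 69 values under an alternative stayed within the limits set and 22 moved. No promoter ratio whose 95% interval lay on one side of 1 turned direction, but the Hdac6 ratio to untagged cells, whose interval covered 1, fell on either side of it. For Tip60 against untagged cells 0 genes were called within 250 bp of the TSS, 2 within 1000 bp and 0 from −100 to 300 bp. For Hdac6 against untagged cells 1 was called within 250 bp, 1 from −100 to 300 bp, 2 at an adjusted p below 0.01, and 0 from −500 to −20 bp, a window chosen after seeing the data. Its summed ratio of 1.02 was 1.15 within 250 bp, 1.33 from −100 to 300 bp, 0.738 with equal totals, 0.866 with equal flank signal and 0.705 from −500 to −20 bp, the last 4 of these with intervals that left out 1. For p400 upon Hdac6 KD 0 genes were called within 250 bp, from −100 to 300 bp, from −500 to −20 bp, with equal totals, with equal flank signal, with the GC correction and at an adjusted p below 0.01. Its ratio was 0.838 within 1000 bp, 0.921 with equal totals and 0.611 from −500 to −20 bp. In the stretch from 500 to 2000 bp the Tip60 ratio upon Hdac6 KD reversed from 0.882 to 1.02 with the GC correction. There the 22 Hdac6 calls against untagged cells became 3 with equal totals (ratio 1.64), 5 from 500 to 1500 bp (1.66), 19 from 1000 to 2000 bp (2.73) and 0 with the GC correction (1.41). The cause of these moves was not tested. No paired analysis was possible because each condition has 1 sample, and for the same reason no sample could be left out. With medians of 4 to 18 reads per promoter, modest differences at a single gene were not detectable at this depth, and the called promoter with the smallest change, Pcdhga1 for p400, had a ratio of 0.480.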

Other observations

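Pcdhgc4, a C-type gene near the end of the γ array, carried more Hdac6 signal before its start than behind it, the reverse of most of the 57 genes. From 2000 to 500 bp upstream it had 2.76 RPM for Hdac6 upon GFP KD and 2.49 upon Tip60 KD, against 2.07 and 1.63 from 500 to 2000 bp downstream. The upstream values were 0.864 in untagged cells, 1.31 and 1.04 for Tip60, and 0.948 and 0.988 for p400. This gene was chosen after its values were seen.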
